A study of Mus musculus with 9 samples.

Results

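The 9 mouse uterus libraries of a bisphenol exposure study were divided by a score of gland genes, and the 4 libraries with a high score were set against the 5 with a low one. The score was the mean of log2(FPKM + 1) over 12 genes known from the uterine gland epithelium, where FPKM, a fragment count divided by gene length and library size, compares levels between genes and libraries. Libraries above 2.3 were called high, namely BPAF 3 (5.04), BPB 3 (3.76), control 2 (2.89) and BPB 1 (2.42). The low-score libraries were BPAF 1 (1.78), BPAF 2 (1.66), control 1 (1.43), BPB 2 (1.37) and control 3 (1.14). BPB 1 and BPAF 1 lay nearest to the threshold on either side. The classes were chosen by these measured values of the 12 genes, so differences between them are given as a description and carry no test.

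All mice were female, wild-type CD-1 (ICR), an outbred stock, bought at 7 to 8 weeks of age, kept on estrogen-free food and sampled after 28 days of daily gavage. Control mice received corn oil, and the exposed mice received bisphenol B (BPB) or bisphenol AF (BPAF) in a daily dose of 300 µg per kg body weight, with 3 libraries per group. BPB and BPAF are used in place of bisphenol A, and the title of the study names uterine disease as its concern. The estrous stage at collection is not stated in the labels, nor whether each library came from 1 animal, so p-values measure only the spread between these libraries. Each treatment held both classes, with 1 high-score library in control, 2 in BPB and 1 in BPAF.

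The libraries rested on 12620540 to 15616525 reads and held 11614 to 13105 genes at 1 FPKM or more. Esr1 and Pgr, the estrogen and progesterone receptors that mark uterine tissue, were present in all 9 libraries, at 12.9 to 29.6 FPKM and 8.10 to 59.5 FPKM. A group of libraries stood apart by genes of the urothelium, the lining of the urinary tract, a cell type that is not part of the uterus. The mean of 15 urothelial genes was 5.88 to 6.82 on the log2(FPKM + 1) scale in BPB 1, BPB 2, BPB 3 and BPAF 1, and 0.71 to 1.25 in the other libraries. These 4 libraries fell on both sides of the score, BPB 1 and BPB 3 among the high and BPB 2 and BPAF 1 among the low. They include every BPB library and no control library, so BPB exposure and urothelial RNA cannot be told apart in BPB against control. In whole tissue, fewer cells of a type and less RNA per cell cannot be told apart.

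The glands of the endometrium arise from the luminal epithelium and secrete proteins and fluid that the early embryo depends on. Their secretion follows the ovarian hormones: estrogen drives growth and products such as lactoferrin, and progesterone, acting through epithelium and stroma, turns on another set of products before implantation. FOXA2 is the transcription factor that defines gland cells in the adult mouse uterus, and the cytokine LIF, made by the glands, is required for implantation.

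Prss28 and Prss29, neighbouring genes for the secreted implantation serine proteinases, and Sult1d1, a cytosolic sulfotransferase, were among the score genes with the widest range. Their promoters are shown because the first pair were high in the same 3 libraries while Sult1d1 was also high in a library without them. The 300 bases around each start are from RefSeq on GRCm38.p6, at chr17:25308396-25308695 (plus strand) for Prss28, chr17:25318404-25318703 (plus strand) for Prss29 and chr5:87568957-87569256 (minus strand) for Sult1d1. Capitals mark a match, on either strand, to TGTTTAC, a core motif of FOXA factors, or to AGAACA, a short element bound by the progesterone and glucocorticoid receptors.
Prss28: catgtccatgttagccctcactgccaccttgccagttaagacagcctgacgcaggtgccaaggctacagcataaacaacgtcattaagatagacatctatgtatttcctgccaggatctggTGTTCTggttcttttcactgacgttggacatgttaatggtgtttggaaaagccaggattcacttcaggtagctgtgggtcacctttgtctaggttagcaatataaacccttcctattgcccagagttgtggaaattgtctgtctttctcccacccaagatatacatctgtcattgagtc
Prss29: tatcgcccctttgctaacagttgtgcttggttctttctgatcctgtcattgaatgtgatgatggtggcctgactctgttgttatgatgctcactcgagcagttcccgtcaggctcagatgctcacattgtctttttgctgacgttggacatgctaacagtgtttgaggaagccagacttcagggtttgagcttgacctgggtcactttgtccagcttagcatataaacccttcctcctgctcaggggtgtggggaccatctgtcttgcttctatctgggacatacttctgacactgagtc
Sult1d1: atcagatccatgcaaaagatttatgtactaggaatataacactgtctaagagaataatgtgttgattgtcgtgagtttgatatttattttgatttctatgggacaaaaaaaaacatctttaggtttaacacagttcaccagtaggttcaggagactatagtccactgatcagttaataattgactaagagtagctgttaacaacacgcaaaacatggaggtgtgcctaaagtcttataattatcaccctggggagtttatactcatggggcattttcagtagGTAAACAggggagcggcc
Aligned with gaps, the Prss28 and Prss29 windows shared 207 identical bases, 69.0% of the window length of 300, against 59.0% and 59.3% for each with Sult1d1. Their longest shared run was 15 bases, ctgacgttggacatg, at position -112 of Prss28 and -113 of Prss29 from the start. TGTTTAC stood in the Sult1d1 window alone among 13 promoters of the 9 score genes that could be matched, and in 3.65% of all 32851 promoters. AGAACA stood in Prss28 and Wfdc3, and in 19.0% of all promoters, and the palindromic estrogen response element stood in none of the 13 and in 0.07% of all. A match describes the letters only.

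The 3 highest scores were those of the libraries with the 2 proteinases. Prss29 stood at 379 FPKM in control 2, 1073 in BPB 3 and 5817 in BPAF 3, at 0 in BPB 1, and at 0, 0, 0.109, 0 and 0.174 FPKM in the low-score control 1, control 3, BPB 2, BPAF 1 and BPAF 2. In recovered reads these were 6193, 16957 and 91657 reads against at most 3 in any other library, where 3 reads, the limit that a count of 0 allows, equal 0.163 to 0.202 FPKM. Prss28 stood at 54.9, 311 and 2289 FPKM in the same 3 libraries, at 0.0576 in BPB 1, at 0.173 in BPAF 2 and at 0 in the other 4. Both genes were therefore at or near 0 in 1 high-score library as well as in all low-score ones. Spink1, a secreted inhibitor of trypsin, stood at 26.3 FPKM in control 2, 1.14 in BPB 1, 116 in BPB 3 and 2112 in BPAF 3. In the low-score control 1, control 3, BPB 2, BPAF 1 and BPAF 2 it stood at 0, 0.563, 0.455, 0 and 0 FPKM. It was the only gene of the score whose high-score and low-score libraries did not overlap, by a margin of 1.14 against 0.563 FPKM. Reads could not be recovered for Spink1, so the counting error of these low values is not known.

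BPB 1 reached its score through other genes. Sult1d1 stood at 236 FPKM in BPB 1, 275 in BPAF 3, 87.4 in BPB 3 and 5.36 in control 2, against 39.4 in BPAF 1, 10.9 in BPAF 2, 8.17 in control 3, 3.39 in BPB 2 and 1.86 in control 1. Control 2 thus lay below 3 of the low-score libraries. Cxcl15, a chemokine known from gland epithelium, was highest in BPB 1 at 23.5 FPKM and in BPAF 1 at 10.9, and stood at 4.15 in BPB 2, 2.67 in BPAF 2, 1.47 in BPB 3, 0.457 in BPAF 3 and 0.125 to 0.170 in the controls. Its high-score and low-score libraries overlapped throughout. Ttr, the carrier of thyroid hormone, stood at 9.20 to 16.8 FPKM in 5 of the 6 exposed libraries and at 0 in BPAF 2, and at 2.66, 0.237 and 0.195 FPKM in control 1, control 2 and control 3. Without Prss28, Prss29 and Spink1 the mean of the other 9 genes was 3.10 in BPB 1, 2.87 in BPAF 3, 2.38 in BPAF 1 and 2.21 in BPB 3. It was 2.16 in BPAF 2, 1.91 in control 1, 1.75 in BPB 2, 1.73 in control 2 and 1.44 in control 3. BPAF 1 thus lay above 2 high-score libraries, and control 2 lay below every low-score library except control 3. The class of control 2 therefore rested on these 3 genes.

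**Figure D1:**
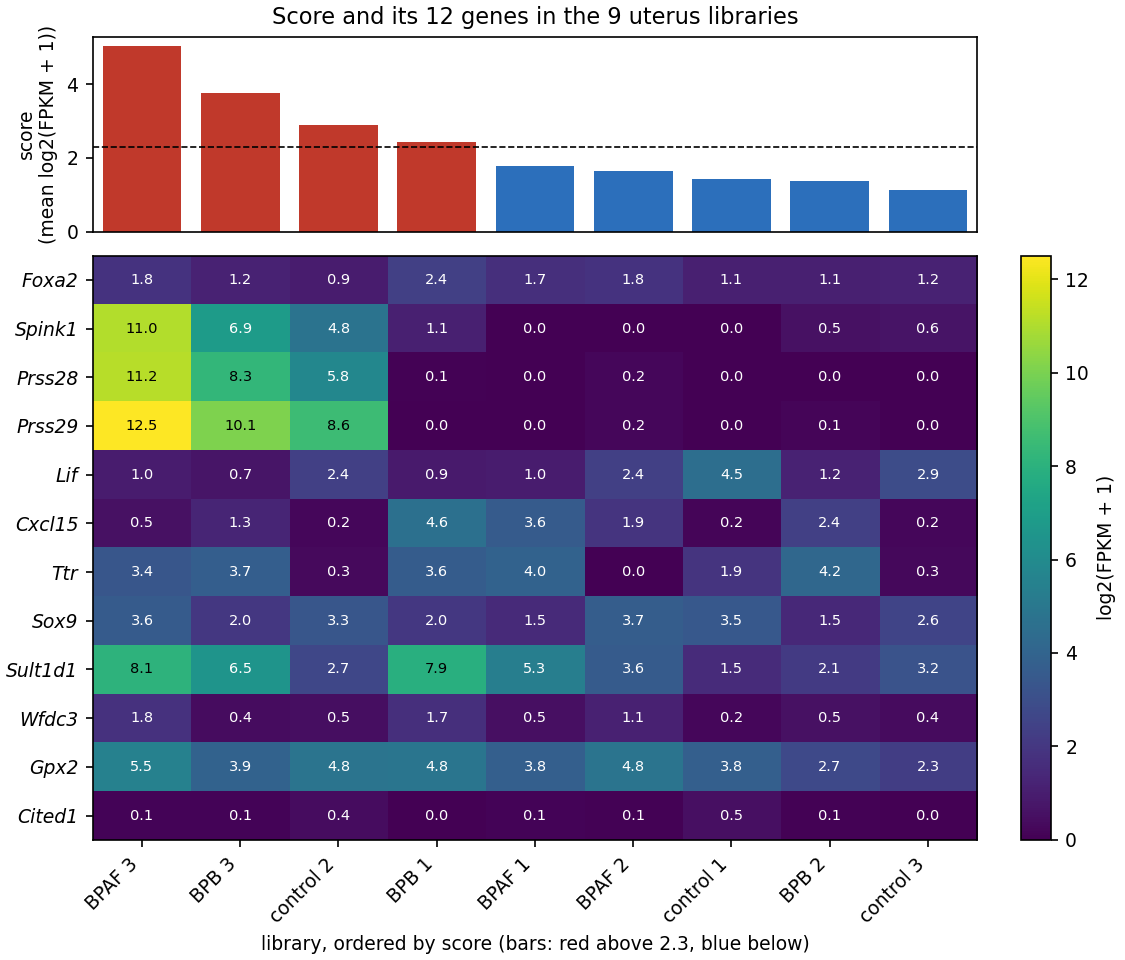
Score of the 9 libraries as bars (red above 2.3, marked by the dashed line, blue below) over the log2(FPKM + 1) of its 12 genes, with libraries ordered by score from 5.04 to 1.14. The Spink1, Prss28 and Prss29 rows are bright in BPAF 3, BPB 3 and control 2 only, and Sult1d1 is brightest in BPAF 3 and BPB 1.

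Genes that regulate the glands did not divide the libraries in the same way. Foxa2 stood at 0.906, 4.18, 1.27 and 2.60 FPKM in the high-score control 2, BPB 1, BPB 3 and BPAF 3, against 1.15, 1.27, 1.12, 2.18 and 2.60 in control 1, control 3, BPB 2, BPAF 1 and BPAF 2. Lif was highest in the low-score control 1 at 21.7 FPKM, and stood at 4.21, 0.864, 0.621 and 0.960 FPKM in the 4 high-score libraries against 6.62, 1.28, 0.948 and 4.15 in control 3, BPB 2, BPAF 1 and BPAF 2. Within each of control and BPB, Lif was thus lower in every high-score library than in every low-score one, and in BPAF it was not. Sox9, a factor of epithelial progenitors, ranged from 3.02 to 11.1 FPKM in the high-score libraries and from 1.73 to 11.9 in the low-score ones.

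Of the remaining score genes, Gpx2, a glutathione peroxidase of epithelia, stood at 27.2, 27.6, 14.4 and 43.6 FPKM in the high-score control 2, BPB 1, BPB 3 and BPAF 3 and at 12.9, 3.86, 5.70, 12.9 and 27.0 in control 1, control 3, BPB 2, BPAF 1 and BPAF 2. It was higher in the high-score libraries of each treatment, although the classes overlapped. Wfdc3, of the whey acidic protein family, was low everywhere, at 0.324 to 2.39 and 0.157 to 1.22 FPKM. Cited1, a transcriptional co-regulator, reached at most 0.445 FPKM and was not among the genes tested. In all, 1 of the 12 genes was higher in every high-score library and 0 were lower, where 0.997% and 0.953% of all 13743 genes tested did so, and 3 genes (Spink1, Prss28 and Gpx2) were higher within each treatment, where 5.49% of all genes were. For Prss28 the order within BPB rested on 1 read in BPB 1 against 0 in BPB 2, which is under the limit of 3 reads, so that no difference was detectable there. Since these genes made the score, nothing is read from those counts. FOXA2 defines gland cells, and the score did not follow its gene, so the classes are described by the score and its leading genes, Prss29, Prss28, Spink1 and Sult1d1, and not as uteri with more or fewer glands.

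**Figure D2:**
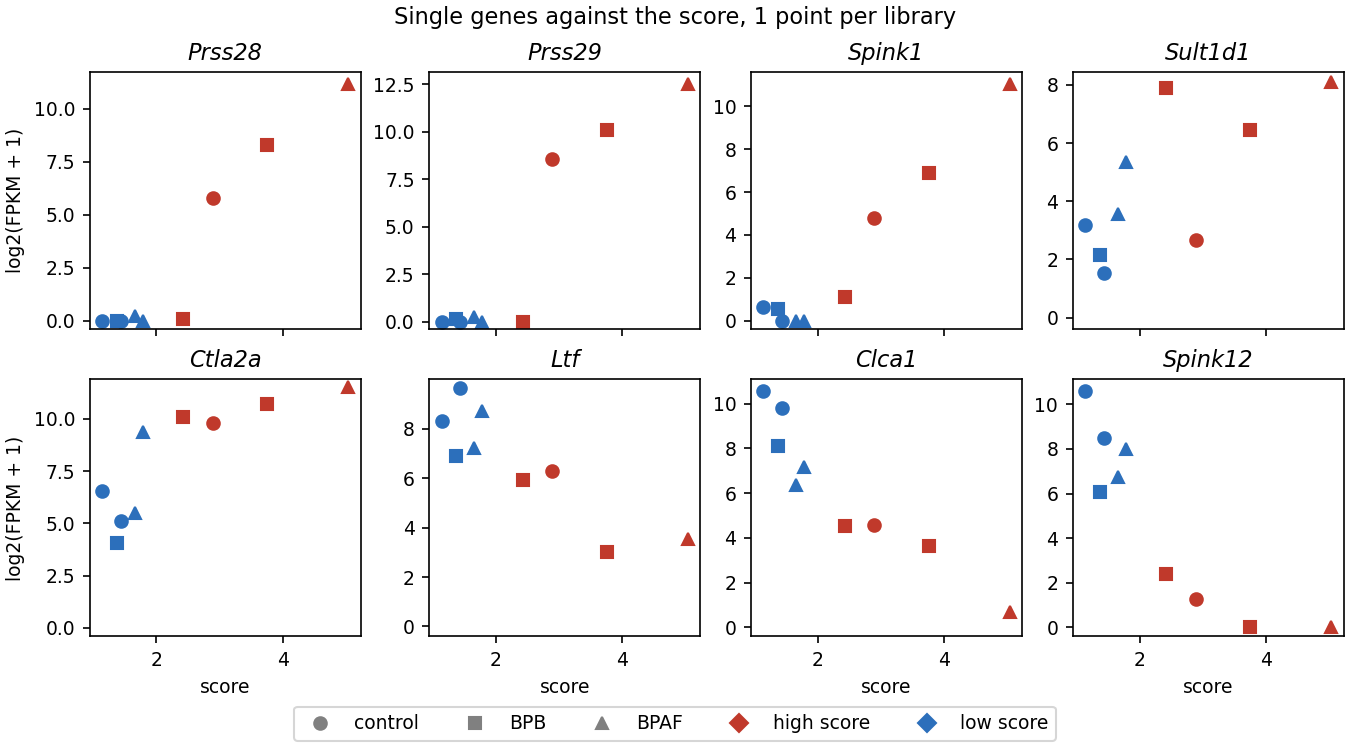
The log2(FPKM + 1) of 8 genes (y axes) against the score (x axes), 1 point per library, with treatment by shape and class by colour. Prss28, Prss29 and Spink1 are higher the higher the score in control 2, BPB 3 and BPAF 3 and lie near 0 or at 1.14 FPKM or less in BPB 1 and the low-score libraries, while Ltf, Clca1 and Spink12 lie lower in each high-score library than in any low-score one.

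Across all genes, small sets divided the classes without overlap. Of 13743 genes that reached 1 FPKM in 3 or more libraries, 137 (0.997%) were higher in all 4 high-score libraries than in any low-score library and 131 (0.953%) were lower. Spink1 is 1 of the 137. Compared only within a treatment, so that every high-score library was set against the low-score libraries of the same treatment, 754 genes (5.49%) were higher and 513 (3.73%) lower in control, BPB and BPAF alike, Spink1, Prss28 and Gpx2 among the higher. The median gene differed by 0.19 (high minus low, log2 scale) in control, -0.01 in BPB and -0.02 in BPAF. Scaling the libraries by median ratios brought these medians to 0.004, -0.02 and 0.03 and gave 609 higher and 669 lower genes within each treatment, so that the balance of higher and lower turned with the scaling. Leaving out a library loosens the condition on a gene: the 137 became 461 without BPB 1, 335 without control 2, 318 without BPB 2, 285 without BPAF 1, 215 without BPAF 2, 212 without BPB 3 and 210 without BPAF 3. The 131 became 311 without control 2, 271 without BPB 1, 263 without BPB 2, 201 without BPAF 3 and 197 without BPAF 1.

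The within-treatment counts grew likewise, the 754 to 2497 without BPB 2, 1818 without BPB 1, 1716 without BPAF 3 and 1293 without control 2. The 513 grew to 1488 without control 2, 1263 without BPB 2, 958 without BPB 1, 924 without BPAF 3 and 875 without control 3. Without control 2, BPB 2 or BPAF 3 the treatment concerned no longer held both classes and dropped out. Those counts therefore cover only the other treatments and are not comparable with the rest. Without the 4 libraries with urothelial genes, which leaves control 2 and BPAF 3 against control 1, control 3 and BPAF 2, the genes without overlap were 1728 higher and 887 lower. With BPB 1 counted among the low-score libraries, 385 were higher and 184 lower. Gaps were small: 0 of the higher and 6 of the lower genes lay at least 1 apart on the log2 scale.

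Among the genes higher in every high-score library the one ranked first, by the smallest difference within a treatment, was Ctla2a, an inhibitor of cysteine proteases known from the decidua. It stood at 892 FPKM in control 2, 1087 in BPB 1, 1676 in BPB 3 and 2912 in BPAF 3, against 34.0, 91.9, 15.6, 658 and 43.4 in control 1, control 3, BPB 2, BPAF 1 and BPAF 2. BPAF 1 came close to control 2, and the near-identical copy Ctla2b and 2 overlapping gene models leave the level of Ctla2a itself uncertain. Arg2, the mitochondrial arginase, stood at 15.5, 27.1, 36.3 and 41.9 FPKM in the same order against 1.81, 5.66, 10.5, 13.0 and 14.6. Jazf1, a zinc finger gene known from fusions in endometrial stromal tumours, stood at 22.4, 10.8, 15.1 and 33.9 FPKM against 6.09, 7.22, 4.92, 4.98 and 7.81. The zinc finger gene was nearest to overlap between BPB 1 and BPAF 2. Slc2a3, a glucose transporter, stood at 4.52, 9.90, 2.16 and 3.57 FPKM against 0.862, 0.203, 0.797, 1.5 and 0.878.

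Other named genes were more modest in level. Wfikkn2, a secreted protease inhibitor that binds growth factors of the TGF-beta family, stood at 9.74, 2.35, 18.3 and 5.0 FPKM in control 2, BPB 1, BPB 3 and BPAF 3, with 2.09 FPKM the highest low-score value. Spock2, a matrix proteoglycan, stood at 13.7, 17.0, 36.5 and 26.8 FPKM against at most 10.9. Efhd1, a mitochondrial calcium-binding protein, stood at 3.23 and 2.65 FPKM in control 2 and BPB 1 but at 25.4 and 52.0 in BPB 3 and BPAF 3, against at most 2.06. Among the high-score libraries the order of Efhd1 was that of Prss28, with the highest levels in the same 2 exposed libraries. Cry1, a repressor of the circadian clock, stood at 20.2, 8.98, 11.8 and 11.2 FPKM against at most 8.66, and its classes overlapped once libraries were scaled by median ratios, as did those of Fam189a2. The rule also named Lrrn1, Msln, Fam46c, Bcl6b, Steap4 and Fam189a2. Arg2, Efhd1 and Mogat1 overlap a gene on the opposite strand, as do Gpx2, Hand2, Fst and Krt8, and since the sources do not state whether the counting used the strand, reads of the partners cannot be told apart.

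Gaps were wider among the genes lower in the high-score libraries. Spink12, a Kazal-type protease inhibitor, stood at 1.43 FPKM in control 2, 4.22 in BPB 1 and 0 in BPB 3 and BPAF 3, against 363, 1532, 66.9, 258 and 106 in control 1, control 3, BPB 2, BPAF 1 and BPAF 2. It thus ran against its relative Spink1 in every treatment. Clca1, a secreted regulator of chloride channels, stood at 22.5, 22.2, 11.4 and 0.602 FPKM against 882, 1535, 273, 142 and 81.4. Ltf, the estrogen-induced iron-binding protein lactoferrin, stood at 77.4, 60.6, 7.09 and 10.6 FPKM against 811, 318, 117, 419 and 148. Spink12 and Clca1 were several-fold lower in the high-score libraries of all 3 treatments. Ltf differed by -2.70 in control, -2.40 in BPB and -4.43 in BPAF on the log2 scale. Within BPB that difference came mainly from BPB 3 (7.09 FPKM), since BPB 1 (60.6) lay nearer to BPB 2 (117).

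Genes of complement, iron export and retinoic acid binding were among the remainder. Cfb, the complement factor B gene, stood at 14.3, 14.2, 3.79 and 1.79 FPKM in control 2, BPB 1, BPB 3 and BPAF 3 against 375, 254, 21.2, 128 and 38.7 in control 1, control 3, BPB 2, BPAF 1 and BPAF 2, and a gene model on the same strand overlaps it. Cfi, complement factor I, stood at 6.54, 4.81, 4.57 and 7.42 FPKM against 46.7, 46.3, 21.6, 40.2 and 38.2. Slc40a1, the iron exporter ferroportin, stood at 5.91, 3.62, 3.21 and 2.51 FPKM against 48.7, 48.1, 24.6, 15.3 and 26.8. In both genes every low-score library lay well above every high-score one. Crabp2, which carries retinoic acid in the cell, stood at 2.04, 2.16, 1.27 and 1.04 FPKM against 15.3, 35.4, 13.8, 4.76 and 24.0. Muc1, the surface mucin of the luminal epithelium, stood at 40.7, 14.1, 2.41 and 11.9 FPKM against 190, 68.8, 45.8, 46.6 and 85.1. Cbr2, a carbonyl reductase, ranged from 2.31 to 139 FPKM in the high-score libraries and from 176 to 790 in the others. Mogat1, Pla2g2e, Egfl6, Aldoc, Dkkl1 and Rpl21 completed the list, and Rpl21, which has many copies, overlapped once libraries were scaled by median ratios. Under that scaling 13 of the 15 higher and 14 of the 15 lower named genes were still without overlap.

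**Figure D3:**
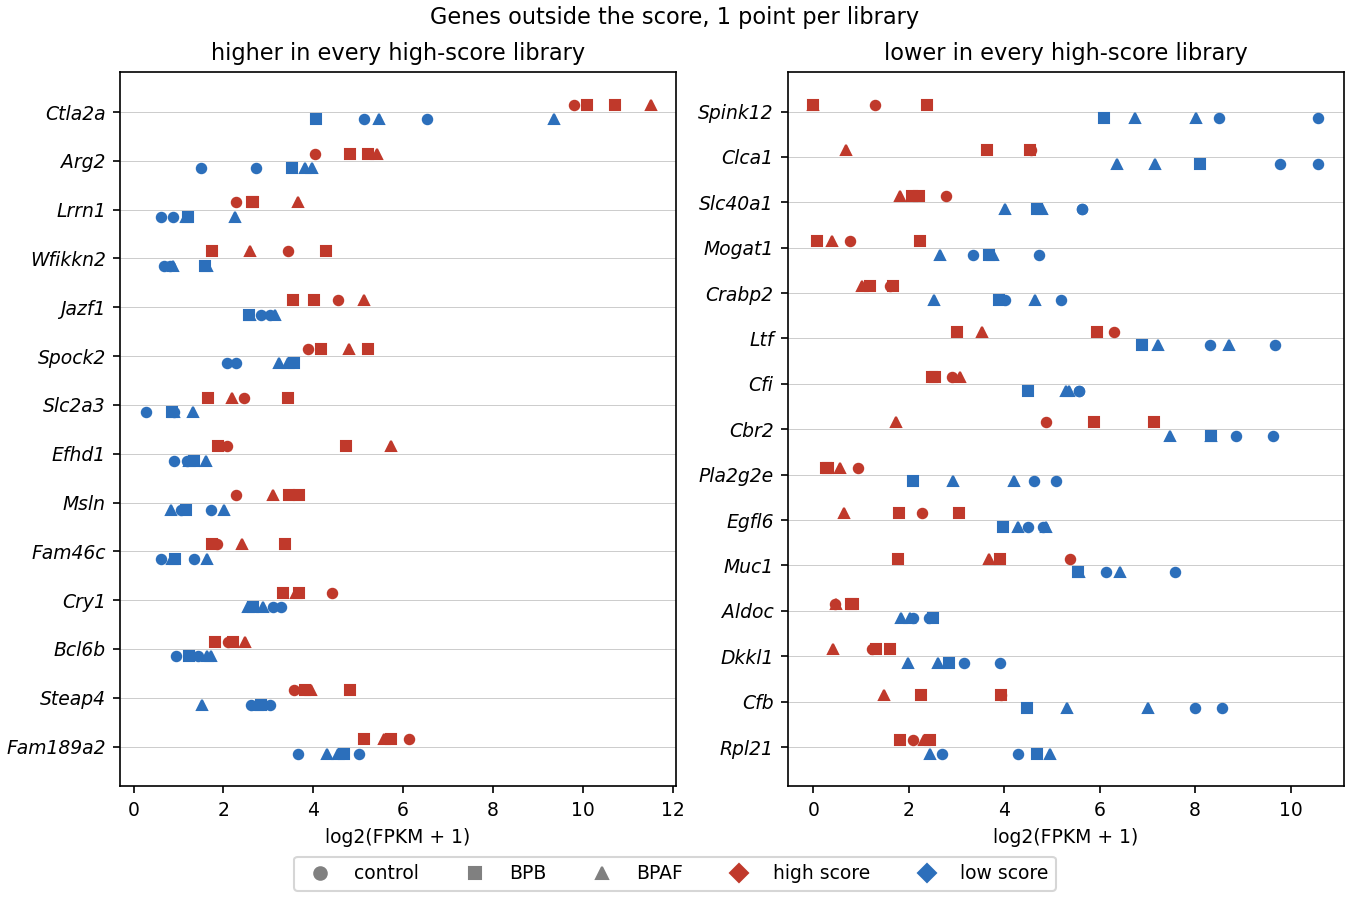
The log2(FPKM + 1) of 14 of the 15 named genes higher (left) and the 15 lower (right) in every high-score library, 1 point per library, with class by colour and treatment by shape. The 2 colours do not overlap in any row, since the rule chose the genes for that, and the gap is widest for Spink12, at 4.22 against 66.9 FPKM.

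Between treatments none of the 30 named genes was called. In the limma fit across all genes, with 3 libraries per group, 0 of the 30 passed an adjusted p of 0.05 in BPB against control, where 2.55% of all genes did, 0 in BPAF against control (0.0218% of all genes) and 0 in BPAF against BPB (0.24%). At an unadjusted p under 0.05 limma gave 3, 1 and 0 of the 30, where it gave 17.4%, 12.8% and 6.75% of all genes. The lowest adjusted p from limma was 0.213, for Muc1 in BPB against control. The 30 were chosen for a difference between libraries within every treatment, which widens the spread that limma compares against. A call was therefore unlikely from the start, and nothing is read from these counts.

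Gene lists for hormone responses and cell types describe the classes more broadly. Outside the 2 lists of score genes, 31 lists were measured, and 3 had a list mean that was higher in every high-score library of each treatment (progesterone and hedgehog genes, endothelium, and ovary and corpus luteum). The mean was lower in every treatment for 2 lists, general epithelium and estrogen-induced genes. Over all genes tested the median difference was 0.04 on the log2 scale.

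A minority of the estrogen-induced genes of the uterine epithelium were lower in the high-score libraries of every treatment. The list's median difference was -1.43 over 21 genes, and 4 of the 21 were lower within each treatment, where 3.73% of all genes were, and 1 was higher. Lcn2, the iron-scavenging lipocalin, stood at 111, 12.2, 1.55 and 0.691 FPKM in control 2, BPB 1, BPB 3 and BPAF 3 against 566, 229, 49.4, 64.3 and 128 in control 1, control 3, BPB 2, BPAF 1 and BPAF 2. Gjb2, a gap junction connexin, stood at 53.3, 4.53, 4.37 and 4.23 FPKM against 55.5, 82.4, 35.8, 77.4 and 73.1, so that control 2 was close to control 1. The receptors themselves did not divide the classes: Esr1 was 13.2 to 28.1 FPKM in the high-score and 12.9 to 29.6 in the low-score libraries, and Pgr was 8.10 to 59.5 against 13.0 to 44.8. The proliferation marker Mki67 was 4.53 to 21 FPKM against 4.88 to 35.2.

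Some genes of the progesterone and Indian hedgehog axis were higher in the high-score libraries of every treatment. The list's median difference was 0.52 over 17 genes, 5 were higher within each treatment (4 under median-ratio scaling), where 5.49% of all genes were, and 0 were lower. Hand2, the stromal factor that acts downstream of progesterone to restrain epithelial growth, stood at 20.0, 31.6, 34.8 and 57.2 FPKM in control 2, BPB 1, BPB 3 and BPAF 3 against 9.16, 4.15, 15.4, 29.7 and 14.1 in control 1, control 3, BPB 2, BPAF 1 and BPAF 2. Fst, the activin-binding follistatin of the decidua, stood at 4.66, 14.2, 16.9 and 26.6 FPKM against 1.59, 0.678, 3.95, 7.21 and 0.586. Both genes were higher in the high-score library or libraries of each treatment, and overlapped between treatments. Sgk1, a kinase of epithelial ion transport, differed by 0.97 in control, 0.77 in BPB and 0.46 in BPAF on the log2 scale.

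Of 19 general epithelial genes, 8 were lower within each treatment, where 3.73% of all genes were, and 0 were higher (5.49% of all genes). The median difference was -0.63. Krt8, a keratin of simple epithelia, stood at 286, 225, 285 and 89.3 FPKM in control 2, BPB 1, BPB 3 and BPAF 3 against 484, 300, 402, 339 and 403 in control 1, control 3, BPB 2, BPAF 1 and BPAF 2. Cdh1, E-cadherin, stood at 61.3, 48.4, 50.0 and 46.4 FPKM against 113, 62.6, 76.8, 52.5 and 109. Krt8 thus did not overlap, though control 2 and BPB 3 came close to control 3, and Cdh1 overlapped between treatments. Among the luminal genes, 3 of 9 were lower within each treatment, where 3.73% of all genes were, and 0 were higher. The median difference was only -0.07. Within BPB the mean of the luminal list overlapped, at 3.89 in BPB 1 against 3.07 in the low-score BPB 2. Muc1 and Wnt7a, which patterns the epithelium, were among the 3 lower genes. Wnt7a stood at 5.50, 2.66, 0.377 and 4.03 FPKM against 7.52, 6.78, 16.7, 24.1 and 25.6. The urothelium expresses Krt8 and Cdh1 too, and its genes were high in 4 libraries of both classes. With those 4 libraries left out, 11 of the 19 general epithelial genes were lower within control and BPAF, where 11.2% of all genes were. With BPB 1 counted as low, 3 were lower, where 5.27% of all genes were.

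Gland genes outside the score showed no common direction gene by gene. Of 11 measured genes associated with gland epithelium but not in the score, 1 was higher within each treatment and 1 was lower, where 5.49% and 3.73% of all genes were, with a median difference of -0.05. The mean of the list was nevertheless higher by 0.64 in control, 0.21 in BPB and 0.32 in BPAF on the log2 scale. Its libraries stood apart in control and BPAF, and in BPB they overlapped. Hsd11b2, which inactivates glucocorticoids, stood at 278, 77.5, 118 and 135 FPKM in control 2, BPB 1, BPB 3 and BPAF 3 against 146, 16.6, 30.3, 28.5 and 80.2 in control 1, control 3, BPB 2, BPAF 1 and BPAF 2. Prom1, a stem cell surface protein, differed by -0.76, -0.38 and -0.18 on the log2 scale in control, BPB and BPAF. Of 16 gland development genes, 4 were higher and 4 lower within each treatment, and of 14 genes of the secretory pathway 2 were higher and 1 lower, against the same shares of all genes. Under median-ratio scaling 0 of the secretory genes were higher.

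Of 12 endothelial genes, 8 were higher within each treatment (7 under median-ratio scaling), where 5.49% of all genes were, and 0 were lower, with a median difference of 0.70. Pecam1, an adhesion molecule of vessel walls, stood at 15.3, 8.07, 10.0 and 17.6 FPKM in control 2, BPB 1, BPB 3 and BPAF 3 against 8.48, 3.88, 6.85, 8.62 and 9.26 in control 1, control 3, BPB 2, BPAF 1 and BPAF 2. Esam, of endothelial junctions, stood at 12.6, 14.4, 14.4 and 23.6 FPKM against 8.03, 5.88, 9.74, 11.4 and 14.4. Within BPB these differences were small, 0.35 for Pecam1 and 0.52 for Esam on the log2 scale. With BPB 1 counted as low, 5 of the 12 were higher, where 11% of all genes were. Without the 4 libraries with urothelial genes 10 were higher within control and BPAF, where 24.2% of all genes were.

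Of 15 stromal genes 4 were higher within each treatment (3 under median-ratio scaling), where 5.49% of all genes were, and 0 were lower, with a median of 0.50. Postn, a matrix protein, stood at 35.3, 45.9, 65.2 and 30.4 FPKM in control 2, BPB 1, BPB 3 and BPAF 3 against 9.97, 29.7, 27.0, 30.3 and 12.4 in control 1, control 3, BPB 2, BPAF 1 and BPAF 2, with BPAF 3 and BPAF 1 nearly level. Of 6 mesothelial genes, Msln and Wt1 were higher without overlap, where 0.997% of all genes were, while the other 4 were not on 1 side and the list median was -0.42. Msln, mesothelin, stood at 3.86, 10.1, 11.9 and 7.53 FPKM against 2.29, 1.09, 1.24, 3.02 and 0.778. Of 5 measured ovarian genes, Inha and Prlr were higher within each treatment, where 5.49% of all genes were, and 2 genes of that list were at 0 in all libraries. The mean of the 5 was 2.62, 1.51, 2.75 and 3.09 in control 2, BPB 1, BPB 3 and BPAF 3 against 2.25, 1.30, 1.42, 1.57 and 1.73, and its part in the score was not tested.

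Some other tissues moved with single libraries. Smooth muscle genes were lowest in BPAF 3, the library with the highest score, with a list mean of 4.99 against 6.15 to 8.25 in the other 8 libraries. Of these 15 genes 0 lay on 1 side within each treatment, where 5.49% of all genes were higher and 3.73% lower. Interferon-stimulated genes were highest in the low-score control 1, at a list mean of 6.4 against 1.64 to 3.39 elsewhere. Genes encoded in mitochondria made up 34.1% of the summed FPKM in the low-score control 3 and 14.0% to 27.0% in the other libraries. The part of these differences in the class comparison was not tested. Of the 31 lists outside the score, 11 had no member on 1 side in every treatment, among them mitosis, DNA replication and urothelium. Some of the 11 held few genes, such as 2 for eosinophils and 3 for erythrocytes. Given the low shares of all genes, nothing is read from such counts of 0.

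**Figure D4:**
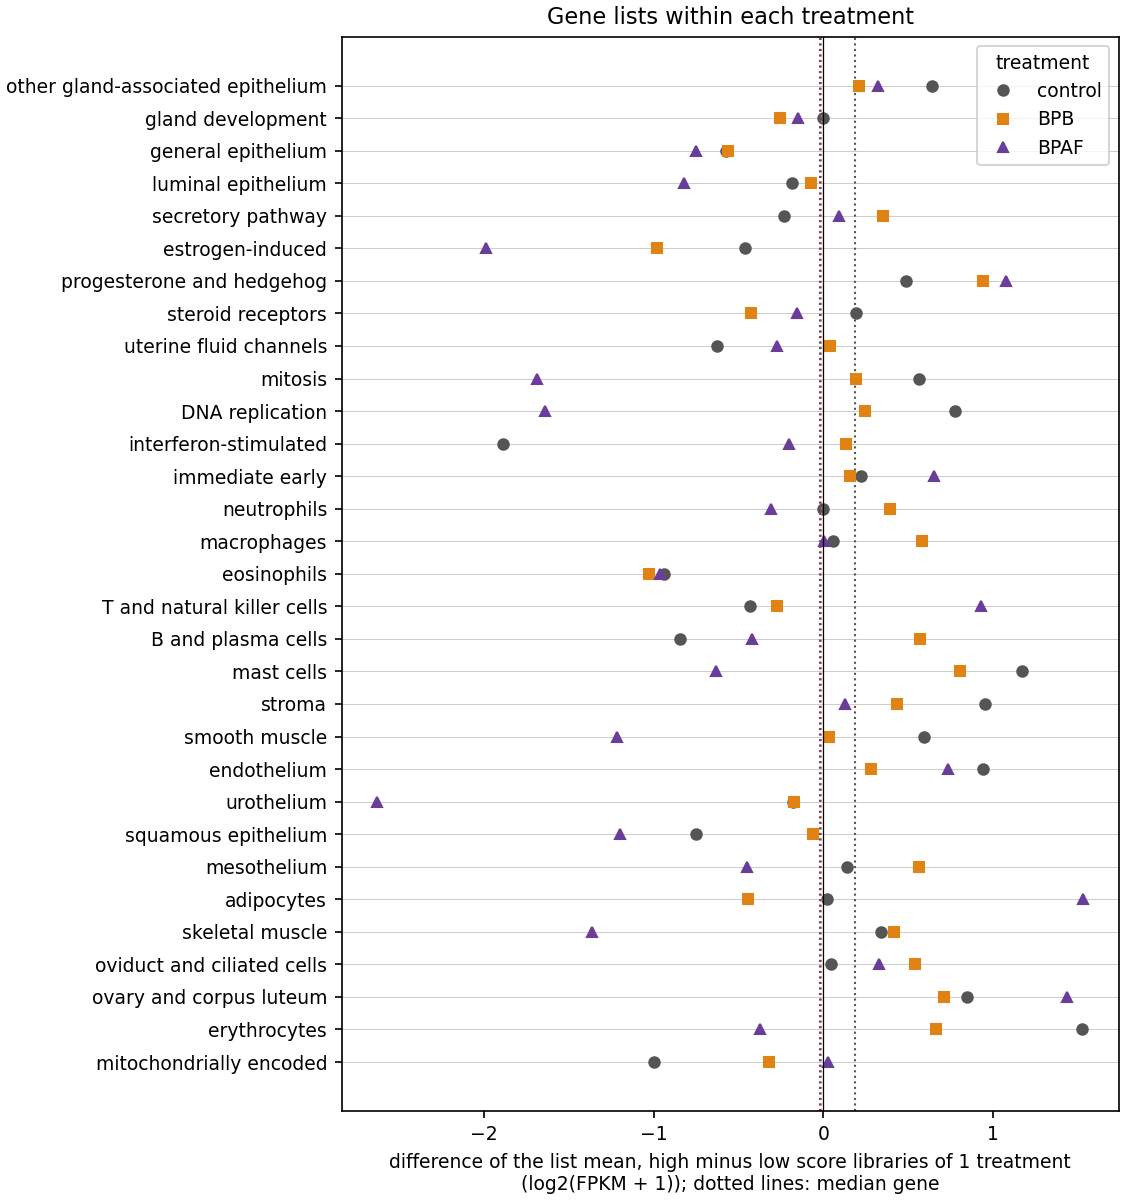
Difference of the mean log2(FPKM + 1) of each gene list between the high-score and low-score libraries of 1 treatment (x axis), for 31 lists and 3 treatments by shape, with dotted lines at the median gene of each treatment. All 3 symbols lie left of 0 for estrogen-induced and general epithelial genes (-1.99 to -0.46 and -0.75 to -0.56) and right of 0 for endothelial and progesterone and hedgehog genes.

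The score genes were also compared between treatments, in the limma fit across all genes. Of the 11 score genes tested, 0 were called in BPB against control, in BPAF against control or in BPAF against BPB, at background rates of 2.55%, 0.0218% and 0.24%. At an unadjusted p under 0.05 limma gave 4 of the 11 in BPB against control, where 17.4% of all genes did so, 1 in BPAF against control (12.8%) and 0 in BPAF against BPB (6.75%). Both exposed groups were set against the same 3 control libraries. Prss29 was 126 ± 219 FPKM in control, 358 ± 620 in BPB and 1939 ± 3358 in BPAF (SD, n = 3), with 1 library of each group holding nearly all of it. The classes were cut on the score genes, and each treatment held both classes. The limma SE was 3.93 for Prss29, 3.26 for Prss28 and 2.91 for Spink1 on the log2 scale. A call was therefore unlikely for these leading genes, and nothing is read from its absence.

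Lif came nearest to a call. It was 10.8 ± 9.48 FPKM in control and 0.923 ± 0.335 in BPB (SD, n = 3), with all 3 BPB libraries below all controls, a log2 difference of -2.34 (SE 0.55) and an adjusted p of 0.0619 in limma. In BPAF it was 2.02 ± 1.85 FPKM, with a difference from control of -1.84 (SE 0.55) and an adjusted p of 0.301. Ttr was 1.03 ± 1.41 FPKM in control and 13.5 ± 2.92 in BPB, a difference of 3.03 (SE 0.90) with a limma adjusted p of 0.121. Neither gene followed the score within BPB, where BPB 2, the low-score library, had the highest Ttr and the highest Lif. Without BPAF 2, a library outside this comparison that enters through the shared spread, Lif and Ttr passed in limma, at adjusted p of 0.0442 and 0.0182. Cxcl15 was 0.148 ± 0.022 FPKM in control, 9.72 ± 12.0 in BPB and 4.67 ± 5.49 in BPAF (SD, n = 3). Every exposed library lay above every control for Cxcl15, and the adjusted p in limma was 0.169 for BPB and 0.418 for BPAF. Without BPAF 1, Sox9 passed in BPAF against BPB, with a difference of 1.82 and a limma adjusted p of 0.0394.

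Sult1d1 was 5.13 ± 3.16 FPKM in control, 109 ± 118 in BPB and 108 ± 145 in BPAF (SD, n = 3), a log2 difference of 3.04 (SE 1.47) and 3.21 (SE 1.47) with adjusted p of 0.326 and 0.405 in limma. The low-score BPB 2 lay at the level of the controls, and the other 5 exposed libraries lay above all controls. Taking the class of the library as a second term beside treatment, limma called 227 genes in BPB against control in place of 351, of which 204 were shared. In BPAF against control it called 10 in place of 3, all 3 of which were among them, and in BPAF against BPB 0 in place of 33. Gata3, Trp63 and Pparg of the urothelial list were called by limma in BPB against control, at adjusted p of 0.0223, 0.0352 and 0.0493. Krt20 of that list was not, at a limma adjusted p of 0.518. Every BPB library and no control had high urothelial genes, so treatment and urothelial RNA cannot be told apart there. BPAF against BPB is affected likewise, since BPAF 1 alone of its group had them.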

How the data were processed

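RNA was sequenced from 9 uterus samples with a stranded mRNA kit, per the labels' protocols. The authors deposited normalized values, 1 per gene symbol and library, read here as FPKM that they had computed by dividing fragment counts by gene length and library size, since the file headers name no unit. For genes with only 1 transcript in GENCODE M21, value times transcript length was tried as whole reads: 91.4% to 93.1% of low values per library fell within 0.01 of a whole number of reads. That step gave 12620540 to 15616525 reads per library. It covered genes with 1 transcript only, so no count test was run. Which aligner, counter, build and filters were used is not given in the sources used here. Limits drawn from 3 reads cover counting error only.

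Of 34745 lines per file, 126 with a repeated symbol were left out, which left 34619. Genes that reached 1 FPKM in 3 or more libraries were tested (13743). Classes were compared by counting genes whose libraries do not overlap, over all 9 libraries or within each treatment. A list's difference is the median over its genes of each gene's median of the 3 within-treatment differences. Treatments were compared with limma 3.58.1 in R 4.3.3, with trend and robust estimation, on log2(FPKM + 1), all 9 libraries in 1 fit, Benjamini-Hochberg adjusted over all genes tested and called under 0.05. A fold change on this scale understates that of low genes. The planned test allowed for either unit, and the one for normalized values was used. The counting and the limma fit were tested on simulated data.

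The score genes were always named. Up to 15 further genes per direction were named that did not overlap between classes, lay on 1 side within each treatment, had their lowest value in the higher class at 2 FPKM or more and had the largest smallest within-treatment difference, plus up to 4 members per list and Esr1, Pgr, Ltf and Mki67. Some items are not reported here. The members and the 33 lists were chosen with earlier results of these data known. Counting BPB 1 as low and leaving out the 4 libraries with urothelial genes were chosen after seeing the data. Promoters were matched by symbol in RefSeq's GRCm38.p6 table, for 9 of the 12 score genes. Figures and counts were made in Python 3.11.15.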

Additional observations from a re-analysis of the deposited data

Results flagged for a closer look

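Lists whose high-score and low-score libraries differed in opposite directions in different treatments were singled out, and the difference between treatments was not tested, since a treatment holds only 3 libraries. The mean of the mitosis genes was higher by 0.57 (log2 scale) in the high-score control library than in the low-score ones and differed by -1.69 in BPAF, which is 2.26 apart. The DNA replication genes differed by 0.78 in control and -1.64 in BPAF, which is 2.42 apart. The smooth muscle genes differed by 0.60 in control and -1.22 in BPAF, which is 1.81 apart. The mast cell genes differed by 1.17 in control, 0.80 in BPB and -0.63 in BPAF, which is 1.80 and 1.44 from BPAF.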

How the results depend on the processing

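The counts of genes without overlap (137 higher, 131 lower) and on 1 side within each treatment (754 higher, 513 lower) depended on the filter and the gap. With 1 FPKM or more in all 9 libraries, 90 and 85 did not overlap and 329 were lower within each treatment; with no filter, 206 were higher without overlap. With a gap of at least 1 on the log2 scale the counts were 0, 6, 8 and 23, and with a pseudocount of 0.1 beside that gap 0, 11, 20 and 39. With BPB 1 counted as low, 385 were higher without overlap and 1507 higher within each treatment. Without the 4 libraries with urothelial genes the counts were 1728, 887, 2958 and 1416 among genes at 1 FPKM in 3 of the 5 libraries left. The within-treatment counts there cover control and BPAF only. Leaving out 1 library at a time gave 158 to 461, 142 to 311, 894 to 2497 and 561 to 1488, where fewer libraries make the condition looser. Median-ratio scaling kept 102 of the 137 and 109 of the 131 genes, and put all 9 libraries in the same class. Cutting the score at its largest gap left 6 to 8 of the 9 libraries in their class: in 13 of 16 such settings BPAF 3 alone was high, and the median or the 5 markers moved BPB 1 to low.

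In limma, BPB against control (351 genes) gave 54 with the stricter filter, 163 with none, 152 with a pseudocount of 0.1 and 227 with the score class as a term, and 0 to 436 with 1 library left out: 0 without control 1, 87 without control 2, 61 without control 3, 132 without BPB 1 and 1 without BPB 2 or BPB 3. BPAF against control (3 genes) gave 0 with the stricter filter, 10 with the class and 1 with the score as a term, and 0 to 2 with 1 library left out. BPAF against BPB (33 genes) gave 0 with the stricter filter, 11 with none, 0 with a pseudocount of 0.1, 0 with the class or the score as a term, and 0 to 237 with 1 library left out (237 without BPAF 1). The causes were not tested. Score genes called were 0 under every setting of the filter, pseudocount, scaling and spread, and 0 to 2 in BPB against control and 0 to 1 in BPAF against BPB with 1 library left out. With the replicate number as a block the calls were 19, 0 and 0. Deviations from the treatment mean of each gene were correlated between same-numbered libraries. These correlations ran from -0.37 to 0.34, -0.13 to 0.34 and -0.40 to 0.48 for replicates 1, 2 and 3, so the numbers were not taken to pair the libraries. With 1 or 2 high-score libraries per treatment, a single library sets each within-treatment value.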
